A study of Caenorhabditis elegans with 24 samples.

Results

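PQM-1 is a zinc finger transcription factor of the nematode Caenorhabditis elegans, and the arrays described here measured how worms that lack its function responded to 20 h of cobalt chloride (CoCl2). They are the 3 arrays, of 24 in the series, on which CoCl2-treated pqm-1(ok485) worms were hybridized against untreated worms of the same strain. Both populations on these arrays carried the ok485 allele, listed as pqm-1(lf), loss of function; 1 received 5 mM CoCl2 from early day 1 of adulthood for 20 h and the other received 0 mM for the same time. The arrays compared with them were 3 arrays of treated over untreated wild type (N2) at 20 h and 3 arrays of treated over untreated pqm-1(ok485) at 6 h. Arrays of pqm-1(ok485) over wild type at 20 h, both treated or both untreated, are cited for some genes. All worms were synchronized populations from which total RNA was taken, so the ratios average over every tissue, and fewer cells of a type and less RNA per cell cannot be told apart. According to the methods the mutant grows more slowly than wild type. The methods give hypochlorite synchronization for the array populations, and synchronization at the fourth larval stage, L4, for adult analyses in general. Stage differences that remained by the time of collection were not tested.

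Cobalt is used as a chemical mimic of low oxygen, because it interferes with the iron-dependent hydroxylases that mark the transcription factor HIF-1 for destruction, and it is also a toxic metal that induces chaperones and metal-binding proteins. PQM-1 acts mainly in the intestine, the tissue that stores fat and makes yolk, and it shares control of growth, stress and metabolic genes with the insulin-regulated factor DAF-16. Day 1 hermaphrodites make oocytes, load them with intestinal yolk, and fertilize them with sperm that they made in the last larval stage.

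Each value below is a log2 ratio of CoCl2 over control on 1 array, or a mean of such ratios with its standard error, so that 1 unit is a 2-fold difference. A gene was called higher or lower where limma gave a Benjamini-Hochberg adjusted p below 0.01 over the 23058 genes tested. The per-channel strain and treatment fields, which set the direction of each ratio, disagreed with the source names on 10 of the 24 arrays, among them replicate 1 of the mutant at 20 h. With the fields, the 3 mutant arrays correlated at 0.908, 0.939 and 0.909 across genes; with the source names, replicate 1 ran against the other 2. The fields also gave the direction of the deposited table. Replicates 1 and 2 of the mutant lay on 1 slide together with wild-type replicate 2, and mutant replicate 3 lay on another slide. Wild-type replicate 2 correlated at 0.806 and 0.749 with wild-type replicates 1 and 3, which correlated at 0.831 with each other. With the mutant arrays wild-type replicate 2 correlated at 0.749 to 0.81, where wild-type replicates 1 and 3 gave 0.578 to 0.671.

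The response of the mutant was broad. Of the 23058 genes, 8114 were called (35.2%), 5250 higher (22.8%) and 2864 lower (12.4%), and 2055 of the former and 285 of the latter changed by at least 2-fold. The sign was the same on every array that measured the gene for 8111 of the 8114. The split between higher and lower calls depended on the scaling of the arrays: 64.7% of calls were higher with loess-normalized ratios, and 47.8% were higher with the ratios of the scanner software, under which the median of all genes moved from -0.0087 to -0.17. Wild type gave 3667 calls (15.9%), 2070 higher (8.98%) and 1597 lower (6.93%). Of the genes called higher in wild type, 1832 were also called higher in the mutant, which is 88.5% of the wild-type list and 34.9% of the mutant list. Of those called lower, 1020 were shared, 63.9% of the wild-type list and 35.6% of the mutant list.

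The probe for pqm-1 itself rose with CoCl2. In the mutant its log2 ratios were 2.97, 3.77 and 2.72, and in wild type they were 1.89, 2.36 and 1.71, with no overlap between the strains. The rise was larger in the mutant by 1.17 ± 0.23 (limma, adjusted p = 0.0048), a call that was lost without mutant replicate 1 (1.27, adjusted p = 0.0128), wild-type replicate 1 (1.12, adjusted p = 0.0242) or wild-type replicate 3 (adjusted p = 0.0215). Untreated mutants had less of this signal than untreated wild type, at -1.57, -1.36 and -1.43, while treated mutants and treated wild type differed by 0.26, 0.12 and 0.18. Where the probe lies relative to the ok485 deletion is not given in the sources used here, so its signal neither checks nor contradicts the strain label.

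The 15 largest rises included numr-1 and 4 small heat shock genes of the hsp-16 family, beside dod-24, gst-38, comt-4 and 7 genes with sequence names only. numr-1, a nuclear RNA-binding protein gene induced by cadmium and other metals, had the highest mean ratio, followed by C25F9.11 and the small heat shock genes hsp-16.2, hsp-16.1, hsp-16.48 and hsp-16.41. The log2 ratios of numr-1 were 5.93, 5.42 and 5.75, a mean of 5.70 ± 0.18 or 51.9-fold (adjusted p = 1.52e-09). C25F9.11 rose by 5.52 ± 0.24 with ratios of 5.80, 5.76 and 5.01. All of these arrays lay far above 0, and wild type gave 5.85 for numr-1 and 5.64 for C25F9.11, so the strains overlapped.

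The hsp-16 proteins are small chaperones that hold unfolding proteins, and hsp-70 is an inducible chaperone that refolds them. Of the 8 genes in this list 7 were called higher and none lower, with a median of 4.32 against -0.0087 for all genes. hsp-16.2 had ratios of 4.85, 5.19 and 5.23, and hsp-70 had 3.08, 2.99 and 4.01. Wild type gave 5.02 for hsp-16.2 and 3.15 for hsp-70, and no member differed between the strains past the threshold. hsp-16.21 was not called (0.17 ± 0.06, adjusted p = 0.0455). The hsp-16 genes include near-identical copies, so that the signal of a single member may hold that of its copy. The untreated mutant already had more hsp-16.1 and hsp-16.48 signal than untreated wild type, by 1.69 (adjusted p = 0.000299) and 1.84 (adjusted p = 0.00164). Of 43 other chaperone genes 5 were higher and 6 lower, and hsp-17 was the highest at 2.07.

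Metal-binding and metal transport genes split. mtl-1 and mtl-2 encode the 2 metallothioneins of the worm, small cysteine-rich proteins that bind zinc, copper and cadmium. mtl-1 rose at 3.52, 3.29 and 3.49 (mean 3.43 ± 0.19), while mtl-2 fell at -1.40, -0.82 and -0.91 (mean -1.04 ± 0.14). In wild type mtl-1 stood at 0.71, which was not called, and mtl-2 fell further, to -2.86. The response was thus higher in the mutant for both genes, by 2.72 for mtl-1 and 1.82 for mtl-2, both past the threshold. cdr-4 and cdr-2, of a cadmium-responsive family related to glutathione S-transferases, rose by 3.17 ± 0.14 and 1.09 ± 0.09, and cdr-2 rose more than in wild type (0.22) by 0.87 ± 0.12 (adjusted p = 0.000779). In the same family cdr-1 was called higher at 0.54, and cdr-7 (-0.42) and cdr-6 (-0.38) were called lower. The calls of cdr-7 and cdr-6 were lost without replicate 1 (limma, adjusted p = 0.0911 and 0.023), and that of cdr-1 without replicate 2 (adjusted p = 0.0294). numr-2 (0.13) and cdr-3 (0.05) were not called, and cdr-3 was not well above background in either channel of any mutant array. numr-2 was well above background in only 1 of the 3 control channels and 2 of the 3 CoCl2 channels. smf-3, an intestinal importer of iron and other divalent metals, rose at 2.15, 2.82 and 1.46. The ferritins ftn-1 and ftn-2, which store iron, fell at -0.91, -1.34 and -0.44 and at -0.93, -1.42 and -1.03. cdf-2, a zinc transporter of intestinal storage granules, rose by 1.29 in the mutant and stood at 0.13 in wild type, a difference of 1.17 (adjusted p = 0.00201). That call was lost without wild-type replicate 1 (1.13, adjusted p = 0.012) and within the shared slide (1.15, adjusted p = 0.0408).

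**Figure D1:**
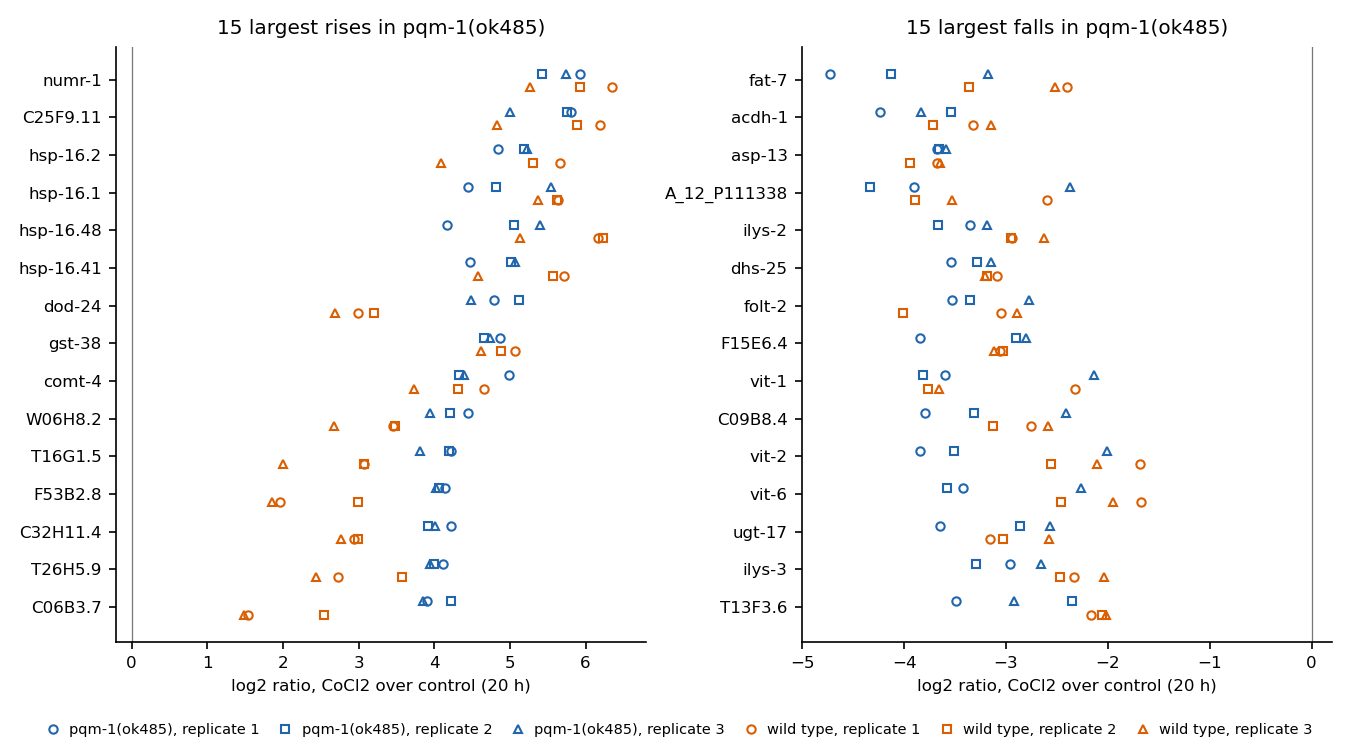
Log2 ratio of CoCl2 over control at 20 h (horizontal axes) for the 15 largest rises and the 15 largest falls called in pqm-1(ok485); blue symbols are the 3 mutant arrays and orange symbols the 3 wild-type arrays. The hsp-16 genes and numr-1 overlap between strains, whereas the 3 mutant values of dod-24 (4.49 to 5.12) lie above the 3 wild-type values (2.69 to 3.20).

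Genes that HIF-1 induces rose in part. Of 16 genes of the pathway and its targets, 8 were called higher and none lower, against 22.8% and 12.4% of all genes, with a median of 0.54. With arrays centred on the median in place of loess 4 were higher, as were 3334 of all 23058 genes. F22B5.4, a standard reporter of HIF-1 activity, had ratios of 2.59, 3.03 and 2.07, and the flavin monooxygenase gene fmo-2 had 2.34, 2.19 and 1.35. nhr-57, a nuclear receptor gene used to read HIF-1 activity, rose by 1.88 ± 0.09 with values of 2.12, 1.93 and 1.59, more than the 0.64 of wild type by 1.24 (past the threshold). The regulators themselves were not called: hif-1 was at 0.05, its hydroxylase egl-9 at -0.10, and vhl-1, which targets HIF-1 for degradation, at -0.25. Of 20 antioxidant genes 11 were called higher and none lower, against the same shares of all genes. They included gcs-1, which makes the first intermediate of glutathione (1.35 ± 0.13), and sod-3, a mitochondrial superoxide dismutase (1.59 ± 0.14). The count of higher antioxidant genes was 5 without mutant replicate 1 or replicate 2, 7 without replicate 3, and 2 with median centring.

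Detoxification genes were called in both directions. Glutathione S-transferases couple glutathione to foreign compounds; 29 of 45 were called higher and 4 lower, against 22.8% and 12.4% of all genes. gst-38 rose most, at 4.87, 4.65 and 4.74 (mean 4.75 ± 0.10), and wild type gave 4.86. gst-19 rose by 3.33 in the mutant and by 1.77 in wild type, a difference past the threshold. Among the oxidases and transferases of other detoxification steps, 14 of 71 cytochrome P450 genes were higher (19.7%, near the 22.8% of all genes) and 17 lower (23.9%), and 25 of 66 UDP-glucuronosyltransferases were higher (37.9%) and 16 lower (24.2%). ugt-17 fell at -3.65, -2.86 and -2.57, and cyp-35A2, an intestinal P450 linked to fat storage, fell at -2.67, -2.08 and -2.27.

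Among the irg genes, which respond to infection, and the dod genes, which were found downstream of DAF-16, 13 of 17 were called higher and 2 lower. Of all genes 22.8% were called higher and 12.4% lower. dod-24, a secreted CUB-like protein gene, had ratios of 4.79, 5.12 and 4.49, all above the wild-type 2.99, 3.20 and 2.69. Its signal was lower in untreated mutants than in untreated wild type, at -0.82 (limma, adjusted p = 0.00298), and higher by 1.18 in treated mutants than in treated wild type. irg-1, a target of the transcription factor ZIP-2, rose at 3.61, 3.35 and 2.79, and zip-2 itself rose by 1.85 ± 0.10. Of 19 genes on the clones C32H11 and F55G11, several of them CUB-like genes, 14 were called higher and none lower, and 7 rose more than in wild type. Over all genes 8.13% had a higher ratio than in wild type past the threshold. This list and that of the irg and dod genes share members such as dod-24 (C32H11.12), so their counts are not separate results. C32H11.4 stood at 4.22, 3.91 and 4.01, above wild type (2.93, 2.99 and 2.77).

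Yolk genes fell on every array. The vitellogenins encode the yolk proteins that carry intestinal lipid into oocytes, and all 5 measured genes were called lower, with a median of -3.09 against a background of 12.4% of genes called lower. vit-2 had ratios of -3.85, -3.51 and -2.01, and vit-6 had -3.42, -3.58 and -2.27. The control channel of vit-2 was saturated on 1 of the 3 arrays, so its ratios, and its differences from wild type and from 6 h, may understate the fall. The fall was smaller on replicate 3 for each of the 5 genes: the list medians were -3.42, -3.51 and -2.01 by array, and -3.50 without replicate 3. Replicate 3 had more saturated probes (471) than replicates 1 and 2 (199 and 189). Whether this bears on the smaller fall was not tested, and vit-6, whose control channel was not flagged as saturated, had the smaller fall too. The control channel was saturated on all 3 arrays for vit-1, vit-4 and vit-5, so their falls are lower bounds: at least 9.07-fold, at least 5.84-fold and at least 4.16-fold. Wild type fell as well, with a median of -2.12 and 5 of 5 called. The difference from the mutant did not pass the threshold for vit-2 (SE 0.50, adjusted p = 0.227) or vit-6 (-1.06 ± 0.43, adjusted p = 0.129). For the saturated genes vit-1, vit-4 and vit-5 it was near 0, at 0.07, -0.09 and -0.01, and did not pass either. Arrays of treated mutant over treated wild type gave -2.01 for vit-2, -1.93 for vit-6, -2.38 for vit-4 and -2.02 for vit-5. These passed the threshold (limma, adjusted p at most 0.000599), and vit-1 did not, at -0.31. Those arrays had 678, 709 and 996 saturated probes. Between the untreated strains none of the 5 genes was called, with vit-4 at -0.34 and vit-5 at -0.35. For vit-4 and vit-5 the strain arrays and the difference between the responses thus gave unlike values, and the reason was not tested.

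Fat metabolism changed selectively rather than as a whole. fat-7, a stearoyl-CoA desaturase that makes oleate, had the lowest mean ratio, at -4.73, -4.13 and -3.17 (mean -4.01 ± 0.25, adjusted p = 1.96e-07). Falls that are only lower bounds, such as that of vit-1 or of the unnamed probe A_12_P111338 (at least 11.6-fold), cannot be ranked against it. Its near paralogue fat-6 was called higher at 0.48, as were fat-5 (1.16), fat-1 (0.82), fat-3 (0.74) and fat-4 (0.82). In wild type fat-7 fell at -2.40, -3.36 and -2.52. The difference of -1.25 ± 0.36 had an adjusted p of 0.0337 (limma), above the threshold. Without mutant replicate 3 it was -1.66 (adjusted p = 0.00402). On the arrays of treated mutant over treated wild type fat-7 was at -2.13 (limma, adjusted p = 3.12e-05). Between the untreated strains it was at -0.66, not called. The call of fat-6 was lost without replicate 2 (adjusted p = 0.0221) or replicate 3 (adjusted p = 0.0262). 3 elongases fell together: elo-5 and elo-6, which make branched-chain fatty acids, at -2.57 ± 0.12 and -2.90 ± 0.11, and elo-2, which extends palmitate, at -2.46 ± 0.10. Wild type gave -2.82, -3.29 and -2.23 for these, and none differed between strains past the threshold. elo-4 rose by 0.91 and elo-7 by 0.69.

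Among 61 genes of fatty acid activation and oxidation 24 were called higher and 19 lower, and the split turned to 19 and 24 with the scanner software's ratios. acs-2, an acyl-CoA synthetase that rises in fasting worms, had ratios of 3.22, 2.79 and 2.64, and exceeded wild type (1.66) by 1.22 (past the threshold). acdh-1, an acyl-CoA dehydrogenase of propionate breakdown, fell at -4.23, -3.54 and -3.83, and its relative acdh-2 fell at -3.12, -2.77 and -1.65. icl-1, the enzyme of the glyoxylate shunt that turns fat carbon to sugar, rose by 1.78 ± 0.15. sodh-1, an alcohol and sorbitol dehydrogenase, rose at 4.36, 3.77 and 3.86 (mean 3.99 ± 0.14), above the 2.49, 2.43 and 1.77 of wild type, and the difference was 1.76 ± 0.20 (adjusted p = 0.000248). Of 20 glycolytic genes 4 were higher and 8 lower, of 62 respiratory chain genes 6 and 1, and of 71 cytosolic ribosomal protein genes 2 and 0, all below the shares of all genes except the 8 lower glycolytic genes.

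Digestive and defence genes were called in both directions. Of 23 intestinal protease genes 8 were higher and 7 lower, with a median of 0.11, and of 64 lysozyme, saposin and antimicrobial peptide genes 27 were higher and 14 lower, with a median of 0.12. Those that rose included the lysozyme gene lys-2 (2.83) and the saposin-like gene spp-2 (2.69). The aspartic protease gene asp-13 fell at -3.67, -3.66 and -3.59 (SE 0.07), and the cysteine protease genes cpr-8, cpr-6 and cpr-5 fell by 1.89, 1.89 and 1.71 on the log2 scale. The invertebrate lysozyme genes ilys-2 and ilys-3 fell at -3.35, -3.67 and -3.18 and at -2.96, -3.30 and -2.66. dhs-25, a short-chain dehydrogenase, and folt-2, a folate transporter, fell by 3.33 and 3.22. The intestinal regulator elt-2 rose at 1.55, 1.03 and 1.26, and the esterase marker ges-1 was called higher at 0.75. Over the 5 intestine markers 3 were higher and 1 lower, and their summed signal was 22000 to 32800 intensity units in the control channels and 22500 to 27400 in the CoCl2 channels.

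Sperm genes rose as a block. The major sperm proteins form the cytoskeleton of the crawling nematode sperm and signal to oocytes, and all 41 measured genes of the msp, msd and ssp families were called higher, against 22.8% of all genes. Their median was 2.66, 2.55 and 2.60 on the 3 arrays, and the lowest single ratio was 0.93. msp-42 had the highest mean, at 3.09, 2.72 and 2.93, and ssp-32 the lowest, at 1.46, 1.40 and 0.93. The summed signal of the list was 131000 to 172000 intensity units in the control channels and 908000 to 1030000 in the CoCl2 channels, with no overlap. msp genes are near-identical copies, and their probes cannot be taken as independent measurements.

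Of 39 other sperm genes 33 were called higher and 1 lower, with a median of 1.02. spe-18, a sperm gene found by its mutants, rose at 2.96, 2.36 and 2.86. gsp-4, a sperm protein phosphatase, rose at 2.31, 2.11 and 2.59, and spe-11, a sperm factor that the embryo needs, at 2.41, 2.47 and 2.39. At 6 h none of the 41 major sperm protein genes was called in the mutant, and their median was 0.15. The untreated mutant at 20 h already exceeded untreated wild type by a median of 2.15 for the major sperm protein genes and by 0.11 for the other sperm genes.

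Oocyte genes moved the other way, by less. Of 38 oocyte and eggshell genes 21 were called lower and 2 higher, against 12.4% and 22.8% of all genes, with a median of -0.50. oma-2, an RNA-binding protein of maturing oocytes, was at -0.59, -0.43 and -0.88, and rme-2, the receptor that takes up yolk, was at -0.63, -0.65 and -0.24, a call lost without replicate 1 (adjusted p = 0.0447) or replicate 2 (adjusted p = 0.0437). The higher members were cpg-7, at 2.75, 2.41 and 3.01, and puf-12, at 0.67, which was not called without replicate 2 (adjusted p = 0.0114). The summed signal of the list was 434000 to 456000 intensity units in controls and 307000 to 361000 with CoCl2. The count of lower calls was 9 to 13 when any 1 of the mutant arrays was left out (9 without replicate 3, 12 without replicate 2 and 13 without replicate 1), and 11 with median centring. Of 28 germline and replication genes 10 were lower and 1 higher. Of 44 genes of the early embryo 15 were lower and 3 higher; 7 were lower without replicate 1 and 32 with the scanner software's ratios.

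**Figure D2:**
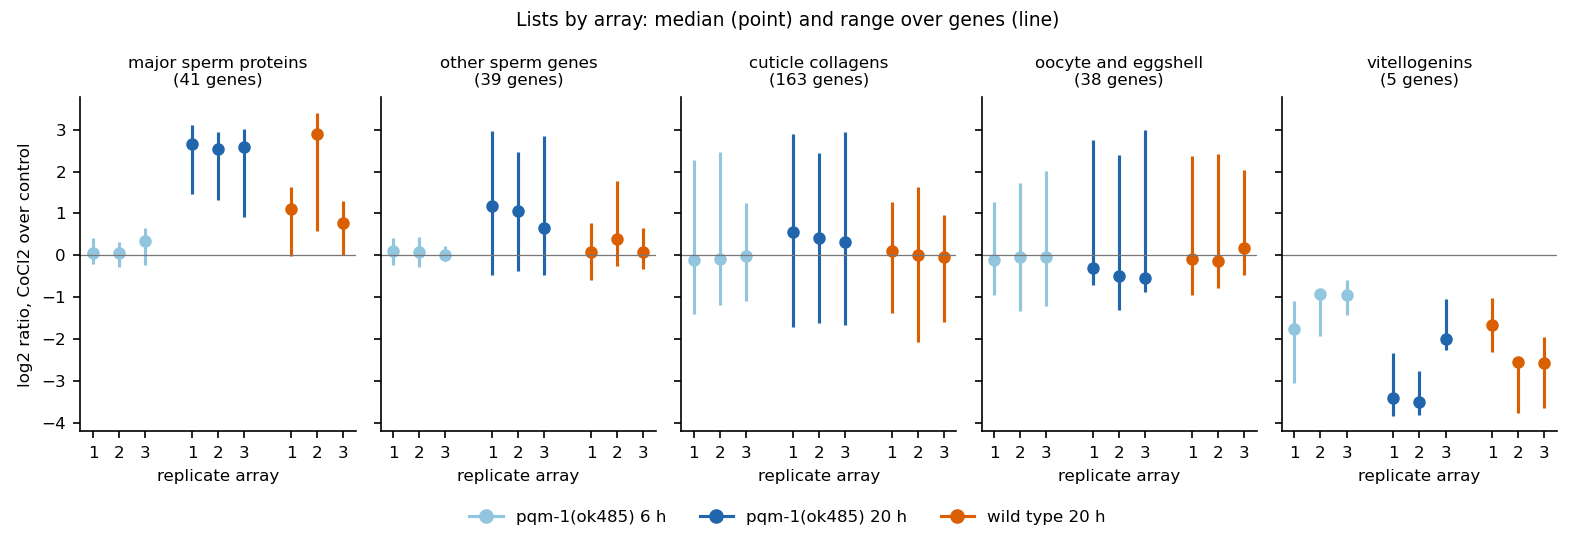
Log2 ratio of CoCl2 over control (vertical axis) on each replicate array (horizontal axis) for 5 gene lists; points are the medians over the genes of a list and lines run from its lowest to its highest gene, in light blue for pqm-1(ok485) at 6 h, dark blue for pqm-1(ok485) at 20 h and orange for wild type at 20 h. Major sperm protein medians are near 0 at 6 h, 2.55 to 2.66 in the mutant at 20 h, and 1.10, 2.90 and 0.77 in wild type, where replicate 2 stands with the mutant.

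Collagens of the cuticle are made by the epidermis in bursts around each molt, and 82 of 163 were called higher and 10 lower (4 lower without replicate 1), or 50.3% and 6.13% against 22.8% and 12.4% of all genes, with a median of 0.35. rol-6 had ratios of 2.89, 2.45 and 2.95, and col-104, col-71 and dpy-13 rose by 2.37, 2.34 and 2.32. col-101 fell most, at -1.72, -1.61 and -1.27. Untreated mutants at 20 h already exceeded untreated wild type by 2.49 for rol-6 (limma, adjusted p = 5.72e-06) and 2.28 for the collagen gene sqt-1. The median of the list in that comparison was 0.29. The collagen genes col-74 and dpy-14 went the other way, at -3.41 and -1.73. Of 80 hedgehog-related and patched-related genes, a group of secreted proteins and receptors that act in molting, 28 were higher (35%) and 8 lower (10%); grl-5, grl-16 and grl-15 rose by 2.11, 1.94 and 1.94. The epidermal regulator elt-3 was at 0.39 (called higher, though not without replicate 1 or replicate 2, adjusted p = 0.035 and 0.0148), the adult collagen col-19 at -0.29 (not called), and over the 4 epidermis markers 3 were higher and none lower.

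Neuropeptide genes, by contrast, rose in both strains. Of 99 flp and nlp genes 77 were called higher and 2 lower in the mutant, and 59 were higher and 1 lower in wild type. Of all genes 22.8% were called higher and 12.4% lower in the mutant, and 8.98% and 6.93% in wild type. flp-18, which encodes FMRFamide-like peptides, rose at 2.03, 1.98 and 1.95, and nlp-25 at 2.04, 3.14 and 2.16. Of 6 neuron markers 4 were higher and 1 lower (unc-119, -0.44, not called without replicate 1 or replicate 3, adjusted p = 0.0445 and 0.0338), with a median of 0.37. Muscle markers gave 1 higher and none lower of 6.

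**Figure D3:**
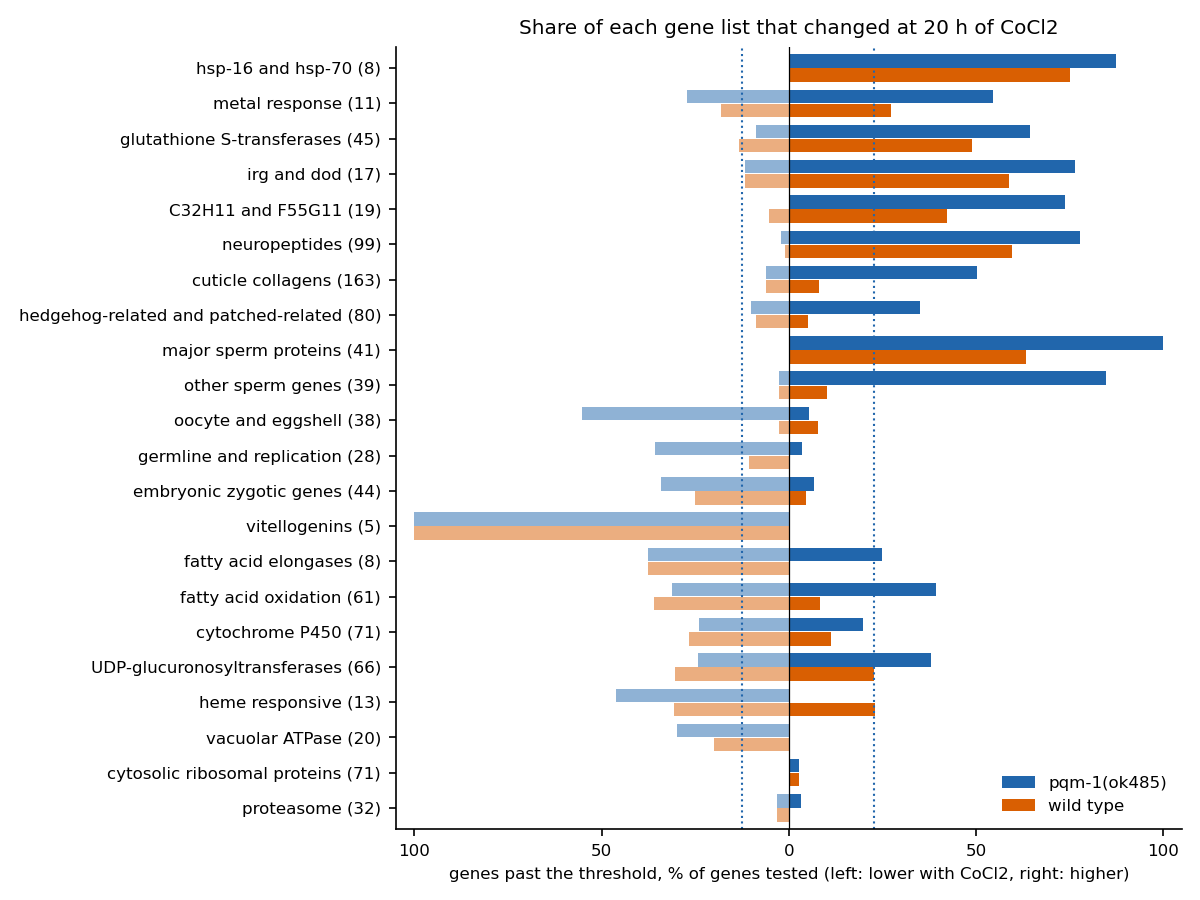
Share of each gene list called higher (to the right) or lower (to the left) with CoCl2 at 20 h, in percent of the genes tested, for pqm-1(ok485) in blue and wild type in orange; the number of genes tested stands in brackets and the dotted lines mark the 22.8% and 12.4% of all genes called in the mutant. Vitellogenins fell in 5 of 5 genes in both strains, whereas cuticle collagens were higher in 82 of 163 genes in the mutant and in 13 of 163 in wild type.

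The comparison with wild type asked which parts of the response depended on the strain. Testing the difference itself, 2044 genes passed (8.86%), 1874 with a higher ratio in the mutant (8.13%) and 170 with a lower one (0.737%). By list, 62 of 163 cuticle collagens, 21 of 80 hedgehog-related and patched-related genes, 19 of 61 fatty acid oxidation genes and 17 of 39 other sperm genes had a higher ratio in the mutant; 24 of 249 nuclear hormone receptors did, close to the 8.13% of all genes. With median centring the collagens numbered 15 and the oxidation genes 1, and with the slide as a fixed block 22 and 4. Without 1 array at a time the oxidation genes numbered 7 or 8 for mutant replicate 2 and wild-type replicates 1 and 3, and 10 for mutant replicate 1. Of the hedgehog-related and patched-related genes 12 passed without mutant replicate 1. Opposite calls were rare: 76 genes (0.33%) were called higher in one strain and lower in the other. The number of differences depended on single arrays: it was 885 without mutant replicate 1, 1216 without mutant replicate 2, 834 without wild-type replicate 1 and 1152 without wild-type replicate 3, but 2141 without mutant replicate 3 and 2334 without wild-type replicate 2. It was 382 with the slide as a fixed block, and 229 within the slide that holds mutant replicates 1 and 2 and wild-type replicate 2. Within that slide 15 of the 36 named differences lost their call, among them those of sodh-1 (1.63, adjusted p = 0.0106), mtl-2 (1.82, adjusted p = 0.0135), acs-2 (1.12, adjusted p = 0.0408) and cdr-2 (0.86, adjusted p = 0.0485), and all 15 kept their sign.

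Several genes rose in the mutant and fell in wild type. dod-3 had ratios of 2.11, 2.01 and 2.01 in the mutant and -1.66, -1.21 and -0.59 in wild type, a difference of 3.20 ± 0.25 (adjusted p = 2.78e-05). T19C9.8 had 1.25, 1.64 and 0.97 against -2.36, -1.71 and -2.02, the largest positive difference at 3.32 ± 0.27. Untreated mutants already had less T19C9.8 signal than untreated wild type, at -1.69 (limma, adjusted p = 0.000235). Treated mutants exceeded treated wild type by 1.34 for this gene. Between the untreated strains dod-3 and clec-4 were not called. clec-4, a C-type lectin gene of the immune response, had 1.14, 1.92 and 0.78 against -1.78, -1.54 and -1.32. None of these arrays overlapped between the strains.

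R12E2.14 and R12E2.15, which carry consecutive names on 1 clone, rose by 2.04 and 1.84 in the mutant and fell by 1.11 and 1.04 on the log2 scale in wild type; whether their probes share sequence was not tested. F41F3.3 rose at least 5.42-fold, since its CoCl2 channel was saturated on 3 of 3 mutant arrays, and stood at -0.67 in wild type. F53F1.4 fell in wild type (-2.71, -2.59 and -3.02) and did not change past the threshold in the mutant (0.28, -0.26 and 0.56). cld-1 rose at 2.40, 3.17 and 2.28 in the mutant and was not called in wild type (-0.18). Untreated mutants already exceeded untreated wild type by 1.34 for cld-1 (limma, adjusted p = 0.00176).

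The genes with a lower ratio in the mutant were few and included heme genes. hrg-2, an epidermal heme protein gene induced when heme is scarce, fell in the mutant at -1.69, -0.54 and -1.06 and rose in wild type at 1.98, 2.31 and 1.69, a difference of -3.09 ± 0.25 (adjusted p = 3.13e-05). hrg-1, a heme transporter of intestinal vesicles, was not called in the mutant (-0.20, 0.11 and -0.23) and rose by 1.38 in wild type. hrg-7, a secreted protease-like protein that reports heme status between tissues, fell by 1.91 on the log2 scale in the mutant and stood at -0.56 in wild type, which was not called; its difference lost the call without mutant replicate 1 (-1.30, adjusted p = 0.0113). These 3 of the 13 hrg genes differed past the threshold, against 0.737% of all genes, and 6 of the 13 were called lower in the mutant and none higher. hrg-4, the heme importer of the intestinal surface, fell in both strains, by 1.17 in the mutant and 0.98 in wild type.

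ins-19, an insulin-like peptide gene, rose in wild type at 3.68, 3.83 and 2.52, while in the mutant it was not well above background in any of the 3 control channels and in only 1 of the 3 CoCl2 channels (0.15, 0.32 and 0.02). The nematode-specific peptide genes nspe-1 and nspe-2 rose in wild type by 2.64 and 1.84 and stood at 0.11 and -0.03 in the mutant, where neither was called. The nspe-2 difference passed with all arrays and lost its call without mutant replicate 1 (-1.74, adjusted p = 0.0226), mutant replicate 2 (adjusted p = 0.0133), wild-type replicate 1 (-1.60, adjusted p = 0.0236) or wild-type replicate 2 (-1.70, adjusted p = 0.0119). nspe-7 fell at -2.97, -2.46 and -2.02 in the mutant and was not called in wild type (0.18). These 3 genes were higher in untreated mutants than in untreated wild type, by 2.85, 2.18 and 1.87. C08F11.12 and Y45F10C.2 fell by 2.22 and 2.23 in the mutant with nearly the same values on each array, and were not called in wild type; whether their probes read the same transcripts was not tested. nlp-39 rose in both strains, by 1.23 in the mutant and by 3.20 in wild type.

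The sperm gene differences between strains rested on single arrays. In wild type the median of the major sperm protein genes was 1.10, 2.90 and 0.77 by array, and 26 of 41 were called higher. Their difference from the mutant passed for 7 of 41 genes, and for 39 of 41 without wild-type replicate 2. Within the slide that this array shares with mutant replicates 1 and 2, which leaves 1 wild-type array, the median difference was -0.24. The difference passed for none without mutant replicate 1 or wild-type replicate 1, for 2 without mutant replicate 2 or wild-type replicate 3, and for 4 without mutant replicate 3. Among the other sperm genes, 17 of 39 differed with all arrays and 22 without wild-type replicate 2, with 4 to 9 without mutant replicate 1 or 2 or wild-type replicate 1 or 3. Of all 23058 genes 1874 were higher in the mutant with all arrays and 2172 without wild-type replicate 2. Without mutant replicates 1 and 2 in turn they numbered 826 and 1034, and without wild-type replicates 1 and 3 in turn 773 and 1009. Collagens behaved otherwise: 62 of 163 differed with all arrays and 54 without wild-type replicate 2. Their median difference was 0.39 with all arrays, 0.41 without wild-type replicate 2 and 0.42 within the slide.

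**Figure D4:**
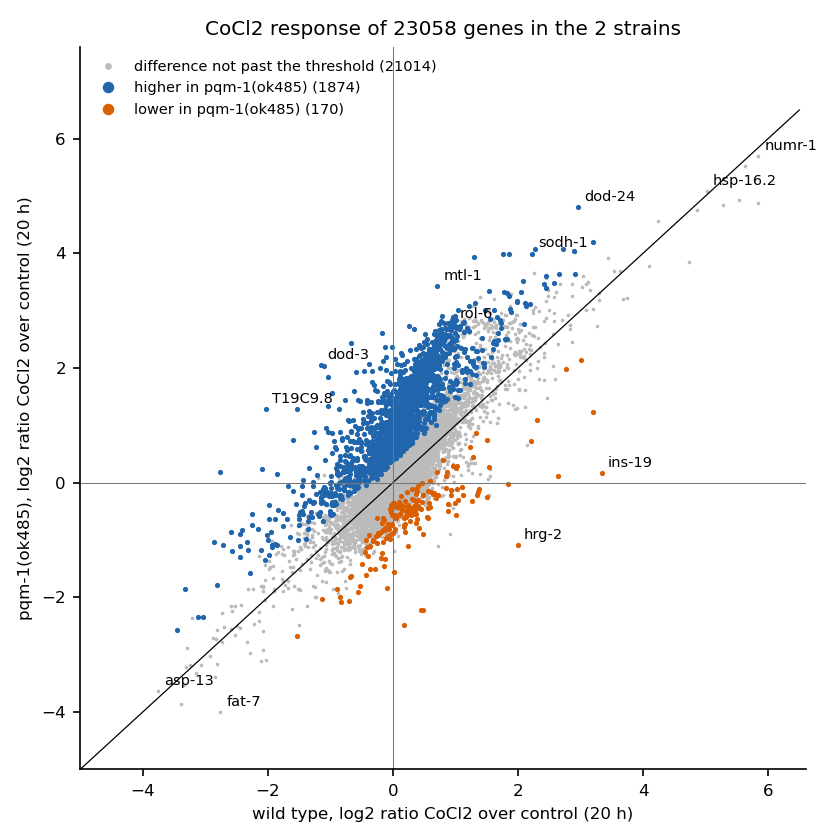
Mean log2 ratio of CoCl2 over control at 20 h in wild type (horizontal axis) and in pqm-1(ok485) (vertical axis) for 23058 genes; blue points are the 1874 genes with a higher and orange points the 170 genes with a lower ratio in the mutant past the threshold, and the black line marks equal ratios. numr-1 and hsp-16.2 lie near the line, while dod-3, T19C9.8 and mtl-1 lie above it and hrg-2 and ins-19 below it.

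The comparison with 6 h asked what the longer exposure added in the mutant. At 6 h 2572 of 21811 genes were called (11.8%), 1439 higher (6.6%) and 1133 lower (5.19%), and the difference between the 2 exposure times passed for 3696 genes (16.9%), 3078 with a higher ratio at 20 h (14.1%) and 618 with a lower one (2.83%). Several stress genes had similar means at the 2 times. hsp-16.2 was at 4.92 at 6 h and 5.09 at 20 h, gst-38 at 4.90 and 4.75, dod-24 at 4.94 and 4.80, elo-6 at -3.23 and -2.90, and the difference did not pass the threshold for any of these 4. numr-1 stood at 5.03 and 5.70 (difference 0.67 ± 0.24, adjusted p = 0.0487).

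Of the 3078 genes with a higher ratio at 20 h, sperm genes and collagens were a small share. All 41 major sperm protein genes, 26 of the other sperm genes and 72 of the cuticle collagens were among them, as were 39 of 99 neuropeptide genes and 27 of 78 hedgehog-related and patched-related genes, against 14.1% of all genes; with median centring the collagens numbered 44 and the neuropeptide genes 1. The largest differences were E01G4.6 (3.51 ± 0.28), rol-6 (3.29 ± 0.29), sqt-1 (3.20 ± 0.26), spch-1 (3.07 ± 0.52) and T10E9.4 (3.06 ± 0.41). rol-6 and sqt-1 are cuticle collagen genes, and their 6 h ratios were below 0, at -0.65, -0.78 and -0.16 for rol-6 and -1.22, -1.07 and -0.73 for sqt-1; rol-6 was not called at 6 h. spch-1, which encodes a protein of sperm chromatin, moved from 0.25 to 3.32, and in wild type at 20 h it stood at 1.40, 3.38 and 0.75, with replicate 2 as high as the mutant. acs-2 stood at 0.42 at 6 h, not called, and at 2.88 at 20 h, and mtl-1 at 1.22 and 3.43, and both differences passed the threshold.

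Of the 618 genes with a lower ratio at 20 h, 2 were vitellogenins (of 5), 13 were genes of the early embryo (of 44), 13 were C-type lectins (of 193) and 6 were intestinal proteases (of 21), against 2.83% of all genes. The early embryo count was 5 without mutant replicate 1 at 20 h and 6 without replicate 2 at 6 h, and the lectin count was 4 without the former and 7 without replicate 1 at 6 h. fat-7 went from -1.84, -1.97 and -1.59 at 6 h to a mean of -4.01 at 20 h (difference -2.21 ± 0.29, adjusted p = 7.75e-06). vit-6 went from -0.89 to -3.09 (difference -2.20 ± 0.34) and vit-2 from -1.04 to -3.12 (difference -2.08 ± 0.41). acdh-1, asp-13 and ilys-2 also fell further, by 1.67, 1.04 and 1.76 on the log2 scale. The differences of vit-1, vit-4 and vit-5, whose control channels were saturated at 20 h, did not pass. Of 159 collagens 6 had a lower ratio at 20 h: col-74 was higher at 6 h (1.68) and lower at 20 h (-1.06), and dpy-14 was higher at 6 h (2.29, 2.43 and 1.22) and was not called at 20 h (-1.39, 0.35 and -1.67), and the others were dpy-17, col-101, col-135 and col-78. TC208583, a transcript cluster of the array design with no gene name, fell at least 5.58-fold at 20 h, with a saturated control channel, and was not called at 6 h (-0.33).

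**Figure D5:**
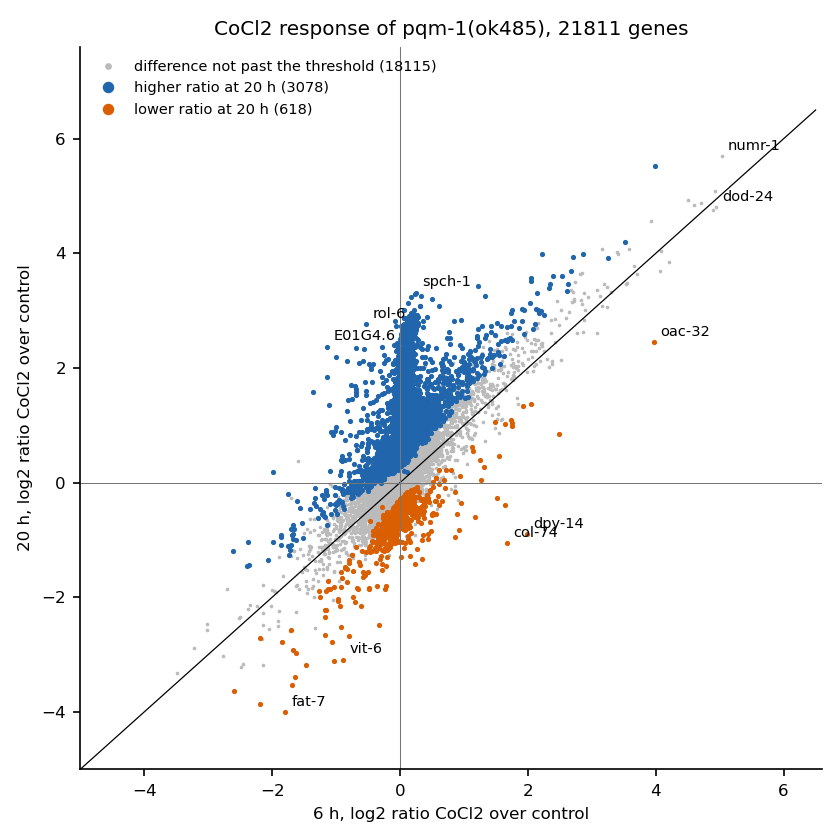
Mean log2 ratio of CoCl2 over control in pqm-1(ok485) at 6 h (horizontal axis) and at 20 h (vertical axis) for 21811 genes; blue points are the 3078 genes with a higher and orange points the 618 genes with a lower ratio at 20 h past the threshold, and the black line marks equal ratios. A band of genes near 0 at 6 h reaches up to about the level of spch-1 (3.32) at 20 h, while numr-1 and dod-24 lie near the line.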

How the data were processed

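RNA from synchronized pqm-1(ok485) and wild-type worms was labelled with 2 dyes by the authors and hybridized to Agilent whole-genome arrays, with 3 biological replicates per comparison; the deposited scanner files (Agilent Feature Extraction 12.0.2.2) hold the spot intensity of each channel and a log10 ratio of the channels, and the deposited series table holds a log2 ratio per probe. That table equalled the scanner log ratio, turned by the treatment fields, within 5e-04. Here, median intensities were corrected with normexp (offset 50) and normalized by loess within arrays (limma 3.58.1, R 4.3.3). Control spots and outlier spots were left out and saturated spots kept; a probe was kept if, in at least 1 comparison of that time, every array had it well above background in at least 1 channel. Spots were averaged per probe and probes per gene, with 16776 of the 23058 tested genes read by 1 probe. Of 43603 probes, 34515 were matched to a gene of the RefSeq table, and other rows kept the name of the array design; K12G11.3 is called sodh-1, as in the study. lmFit and eBayes were run on the 12 arrays of 20 h (8 residual degrees of freedom) or on all 24 (16) for the difference from 6 h, with Benjamini-Hochberg adjusted p below 0.01. The fits were tested on simulated data. The number of arrays limits the precision. A fold named as "at least" sets the bright group's mean against a channel that was saturated or not well above background, at its measured value or at the lowest signal above background.

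Named genes were the 15 largest rises and falls with 1 sign on 3 of 3 arrays, the 8 and 8 largest differences from wild type, the 5 and 5 largest from 6 h, list members and genes that the study names for its arrays. Lists were built from gene names, and the members and lists were chosen with earlier results of these data known. Alternatives changed the background correction, scaling, probe filter, dye and slide terms, replicate block, threshold, test and arrays left out. A planned promoter motif search was not run, as no genome sequence was used here.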

Additional observations from a re-analysis of the deposited data

Results flagged for a closer look

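Groups of 3 arrays were not searched for outlying samples. The response of pqm-1(ok485) at 20 h differed from that of wild type, by a test of the difference in limma, for 2044 genes, and from its own 6 h response for 3696 genes; the named genes among them follow, in log2 units. The response was higher in the mutant by 3.32 for T19C9.8, 3.20 for dod-3, 3.15 for R12E2.14, 3.11 for F41F3.3, 2.96 for F53F1.4, 2.88 for R12E2.15, 2.83 for clec-4, 2.80 for cld-1 and 1.17 for pqm-1. The difference was -3.18 for ins-19, -3.09 for hrg-2, -2.70 for C08F11.12, -2.68 for Y45F10C.2, -2.66 for nspe-7, -2.53 for nspe-1, -1.96 for nlp-39 and -1.86 for nspe-2.

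From 6 h to 20 h the mutant ratio was higher by 3.51 for E01G4.6, 3.29 for rol-6, 3.20 for sqt-1, 3.07 for spch-1 and 3.06 for T10E9.4. The difference was -2.88 for dpy-14, -2.73 for col-74, -2.21 for fat-7, -2.20 for vit-6 and -2.16 for TC208583. The ins-19 value rests on a mutant signal not well above background, and the F41F3.3 and TC208583 values on channels saturated on 3 of 3 mutant arrays.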

How the results depend on the processing

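The 8114 calls of the mutant response became 4532 with median centring, 4898 with only its own 3 arrays in the fit and 12675 with each probe tested on its own. The 2044 differences from wild type became 791 with a normexp offset of 0, 115 with median centring, 574 with only the arrays compared, 382 with the slide as a fixed block, 5330 in a model of all 4 comparisons as a loop, 3716 at an adjusted p below 0.05, and 148 by SAM, the test of the methods. Added after the data were seen, the treated and the untreated strain comparisons gave 3279, and arrays of 1 slide gave 229. The 3696 differences from 6 h became 1430 with median centring, 2018 with only the arrays compared and 2262 by SAM. Leaving out 1 array gave 5706 to 7138, 834 to 2334 and 2591 to 3699 calls. Directions from the source names gave 0 calls in all 3 results, with 10 arrays turned; hsp-16.21 (-0.0047), cdr-7 (0.036) and hrg-2 (0.032) changed sign there, and cdr-3, 0.11 without mutant replicate 1, was -0.036 without mutant replicate 2. Where no value above shows a cause, the cause was not tested.

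Otherwise, 103 to 117 of 117 named mutant responses, 21 to 36 of 36 named differences from wild type and 14 to 16 of 16 named differences from 6 h kept their direction and side of the threshold under each alternative. Replicate numbers were not used as pairs. Between same-numbered mutant and wild-type arrays the deviations from the group means correlated at 0.009, 0.419 and 0.168. Arrays with unlike numbers were not compared in this way, and replicate 2 of both strains shared a slide, so pairing is not excluded. A replicate block gave 7986, 2164 and 3650 calls, of which 7754, 1914 and 3553 were shared with the fits without it. It changed the call of none of these named genes. Saturation compresses the ratios of the brightest probes, and dim probes give only bounds.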

Other observations

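Gene families outside the lists above also moved together in pqm-1(ok485) at 20 h. Among nematode-specific peptide families, 9 of 10 nspd genes (median 2.50) and 13 of 16 nspc genes (median 1.61) were called higher, against 22.8% of all genes. Wild type gave 3 and 11, against 8.98% of all genes. The pgp genes, which encode transporters that pump out foreign compounds, were higher in 10 of 15, and the lec genes, which encode galectins, in 10 of 12; wild type gave 9 and 7. Of 13 abu genes, which encode glutamine-rich and asparagine-rich proteins, 10 were higher in the mutant and none in wild type, against 22.8% and 8.98% of all genes. For 8 of the 13 the ratio was higher in the mutant past the threshold, against 8.13% of all genes. Among the families with many falls were the taf genes, which encode parts of the general transcription machinery, with 7 of 17 called lower, and the set genes, which encode proteins with a histone methyltransferase domain, with 12 of 28, against 12.4% of all genes. These families were picked after their values were seen, so the counts are descriptions.

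Insulin-like peptide genes gave 12 higher and 3 lower of 39 (30.8% and 7.69%, against 22.8% and 12.4% of all genes), led by ins-37 at 3.08, 2.75 and 2.70, with 2.71 in wild type. Among 249 nuclear hormone receptor genes 97 were higher and 13 lower; nhr-114 and nhr-68, which act with vitamin B12 status, fell by 2.56 and 1.80 on the log2 scale in the mutant and by 2.59 and 2.12 in wild type. Of 213 C-type lectin genes 61 were higher and 34 lower (28.6% and 16%, near the shares of all genes), from clec-265 at 3.56, 3.05 and 3.44 to clec-218 at -3.19, -2.53 and -2.05. A pair of antimicrobial genes of the intestine rose more than in wild type: lys-2, a lysozyme, by 2.83 against 0.94, and spp-2, a saposin-like protein, by 2.69 against 0.34, both differences past the threshold with all arrays; that of lys-2 was not past it within 1 slide (1.44, adjusted p = 0.0593).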
